A study of Mus musculus with 4 samples.

Results

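The IFIT gene cluster of mouse chromosome 19 holds 6 genes, *Ifit1*, *Ifit2*, *Ifit3*, *Ifit3b*, *Ifit1bl1* and *Ifit1bl2*, out of 55450 genes in the count table. The cluster was chosen by the difference of its genes between loaded and unloaded cells in these same libraries, and all 6 genes were then taken by name, so this difference is given as a description, and the calls given further down support nothing about it. All 6 genes passed the filter on low counts that kept 16269 genes for testing.

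IFIT proteins, named for interferon-induced proteins with tetratricopeptide repeats, bind RNA and hold back translation when a cell has sensed foreign nucleic acid. Type I interferon binds its receptor, the kinases JAK1 and TYK2 become active, and a complex that holds STAT2 and IRF9 binds a short DNA motif, the interferon-stimulated response element, in front of the target genes. In bone, type I interferon is known for restraining the formation of osteoclasts.

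RNA-seq was performed on MLO-Y4 cells, with 2 unloaded and 2 loaded cultures. MLO-Y4 is an osteocyte-like line that was derived from the long bone of a mouse carrying a viral large T antigen under the osteocalcin promoter. The labels give the genotype of all 4 cultures as WT (wild type). Loaded cells grew on a collagen-coated silicone membrane (UniFlex plates) and were stretched equiaxially for 12 h at 0.5 Hz and 20% strain, whereas unloaded cells, by the labels, spent 12 h in the incubator of the same system on ordinary culture plates. A drawing in the paper shows the same plate for both groups. If the labels hold, stretch and the growth surface cannot be told apart. Total counts were 28941994 and 30058313 in unloaded libraries 1 and 2, and 32185693 and 30337236 in loaded libraries 1 and 2. Levels are given as CPM (counts-per-million), scaled with TMM factors, which correct for differences in library composition. A floor of 3 counts corresponded to between 0.0930 and 0.103 CPM and covers counting error only.

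The labelled cell type was compared with its markers. *Col1a1* (collagen I) was at 1012 ± 28.0 CPM in unloaded and 954 ± 31.2 CPM in loaded cells (SD, n = 2 per group), and *Gja1* (a connexin), *Pdpn* (the early osteocyte marker podoplanin) and *Runx2* (an osteoblast factor) were also above 1 CPM. *Phex*, also an osteocyte gene, had 1270 and 1328 counts in unloaded and 1532 and 1662 counts in loaded cells. *Dmp1* had between 12 and 14 counts in each library, and *Alpl* and *Sp7* had at most 25. The late osteocyte genes *Sost*, *Mepe* and *Fgf23* and the osteoblast gene *Bglap* had at most 9 counts in any library; these and the genes of the preceding 2 sentences were named after their values were seen. Of 8 markers of macrophages and leukocytes, *Csf1r* was the most abundant, at 1573, 1584, 1558 and 1562 CPM in unloaded 1, unloaded 2, loaded 1 and loaded 2. Mean levels in unloaded and loaded cells were 53.6 and 42.8 CPM for *Cd14*, 5.1 and 2.9 CPM for *Cd68*, and 1.4 and 1.1 CPM for *Lyz2*. The rest of the list, *Ptprc*, *Adgre1*, *Itgam* and *Fcgr1*, named after their values were seen, had at most 4 counts in any library. The 8 markers summed to 1633 and 1644 CPM in unloaded and 1604 and 1610 CPM in loaded libraries. Without *Csf1r* the sums were 59.8 and 60.5 CPM in unloaded and 46.0 and 47.9 CPM in loaded libraries, most of it from *Cd14*. The edgeR test called 0 of the 4 tested markers of this list at an adjusted p under 0.01, with 2 lower at an unadjusted p under 0.05 (*Cd14* and *Cd68*; 7.46% of all tested genes were lower at this level and 6.88% higher) and 0 called by DESeq2; their part in the IFIT values was not tested. Of 8 tested bone markers edgeR called 0 at an adjusted p under 0.01 and 1 as higher at 0.05 (*Pdpn*, adjusted p = 0.0334; background 0.338%). The same gene was the 1 with an unadjusted p under 0.05 (background 6.88%) and the 1 called as higher by DESeq2 at an adjusted p under 0.01. Among the 16269 genes tested by edgeR, DESeq2 called 170 as higher at this level. DESeq2 itself gave an adjusted p to 12484 genes. DESeq2 gave no adjusted p for *Dmp1*, *Alpl* and *Sp7*.

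By position, the cluster spans 99316 bp (chr19:34550694-34650009, GRCm38, GENCODE M21). The order along the chromosome is *Ifit2*, *Ifit3*, *Ifit1bl1*, *Ifit3b*, *Ifit1bl2* and *Ifit1*, with *Ifit1bl1* and *Ifit1bl2* on the minus strand and the others on the plus strand. *Ifit1bl2* and *Ifit1* are transcribed away from each other, and their first exons lie 127 bp apart. No exon of one member overlaps an exon of another.

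The promoters were examined because the members share a known inducer. RefSeq (GRCm38.p6) lists 9 windows for the 6 genes, each from 250 bases before to 50 bases after a start site. The core letters of the response element, GAAANNGAAA on either strand (TTTCNNTTTC on the other), were found in a window of 5 of the 6 genes, against 3.99% of 27025 genes and 3.44% of 32851 windows of the same length. At least 2 matches without overlap were found in 4 members and in 0.148% of all genes. The stretches below show these matches in capitals, outside annotated exons.
Space between the first exons of *Ifit1bl2* and *Ifit1* (chr19:34640744-34640870, plus strand): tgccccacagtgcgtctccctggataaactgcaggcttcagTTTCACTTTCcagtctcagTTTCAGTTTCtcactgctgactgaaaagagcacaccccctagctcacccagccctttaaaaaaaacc
*Ifit3* (chr19:34583361-34583428, plus strand): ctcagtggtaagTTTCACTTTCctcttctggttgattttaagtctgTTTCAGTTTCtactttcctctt
*Ifit3b* (chr19:34607757-34607824, plus strand): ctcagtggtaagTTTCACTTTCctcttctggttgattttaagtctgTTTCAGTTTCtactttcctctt
*Ifit1bl1*, first start site (chr19:34602051-34602084, minus strand): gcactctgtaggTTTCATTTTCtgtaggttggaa
*Ifit1bl1*, second start site (chr19:34599429-34599462, minus strand): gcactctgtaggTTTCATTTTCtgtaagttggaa

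*Ifit1* and *Ifit1bl2* share the same 2 matches, read from opposite strands. The stretches of *Ifit3* and *Ifit3b* were identical over 68 bases. Neither window of *Ifit2* holds these letters, which says only that they are not in those windows. A match is a string of letters and not a measured binding site.

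*Ifit1*, whose protein binds capped RNA that lacks ribose methylation, had 4203 and 4207 counts in unloaded cells against 1265 and 1364 counts in loaded cells. Both loaded libraries lay far below both unloaded libraries, and the replicates of a group were close. Its level in unloaded cells was 3.34 times that in loaded cells, with a log2 fold change of -1.74 (SE 0.103). In cultures, fewer cells that express a gene and less RNA per cell cannot be told apart.

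*Ifit3*, whose protein acts with other IFIT proteins, had 749 and 816 counts in unloaded cells against 167 and 163 counts in loaded cells. *Ifit3b*, its near copy, had 585 and 669 counts in unloaded cells against 134 and 156 counts in loaded cells. The groups did not overlap for either gene, and the log2 fold changes of -2.31 (SE 0.134) and -2.17 (SE 0.176) were the lowest of the 6. Their coding sequences, each of 1209 bases, were 99.1% identical with an identical run of 329 bases, and 51.2% of the 50-base pieces of the *Ifit3* transcript also occur in a transcript of another gene. The split of reads between this pair is uncertain, since the read length and the treatment of reads with several matches are not given in the sources used here. Summed into 1 gene, an alternative added after the data were seen, the pair had 1334 and 1485 counts in unloaded and 301 and 319 in loaded libraries, a log2 fold change of -2.25 (SE 0.119).

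*Ifit2*, whose protein pairs with other IFIT proteins, showed the smallest difference among the members whose groups did not overlap. It had 2913 and 2809 counts in unloaded cells against 2110 and 1964 counts in loaded cells, with a log2 fold change of -0.56 (SE 0.0868). Its coding sequence was 60.6% identical to that of *Ifit1* over 1340 aligned bases, and 0% of its 50-base pieces occur in another gene.

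*Ifit1bl2*, an *Ifit1*-like gene, had 189 and 175 counts in unloaded cells against 60 and 42 counts in loaded cells, with a log2 fold change of -1.91 (SE 0.266). Its log2 ratio to *Ifit1*, on the other side of the 127 bp, was -4.82 and -4.93 in the unloaded and -4.74 and -5.36 in the loaded libraries, so the groups overlap for this ratio. *Ifit1bl1*, the other *Ifit1*-like gene, was the exception, with 8 and 16 counts in unloaded cells against 26 and 13 counts in loaded cells. Its groups overlap, and its log2 fold change of 0.62 had an SE of 0.677. *Ifit1bl1* and *Ifit1bl2* were 88.3% identical over 1398 aligned coding bases, and 6.62% and 9.34% of their 50-base pieces occur in another gene.

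**Figure D1:**
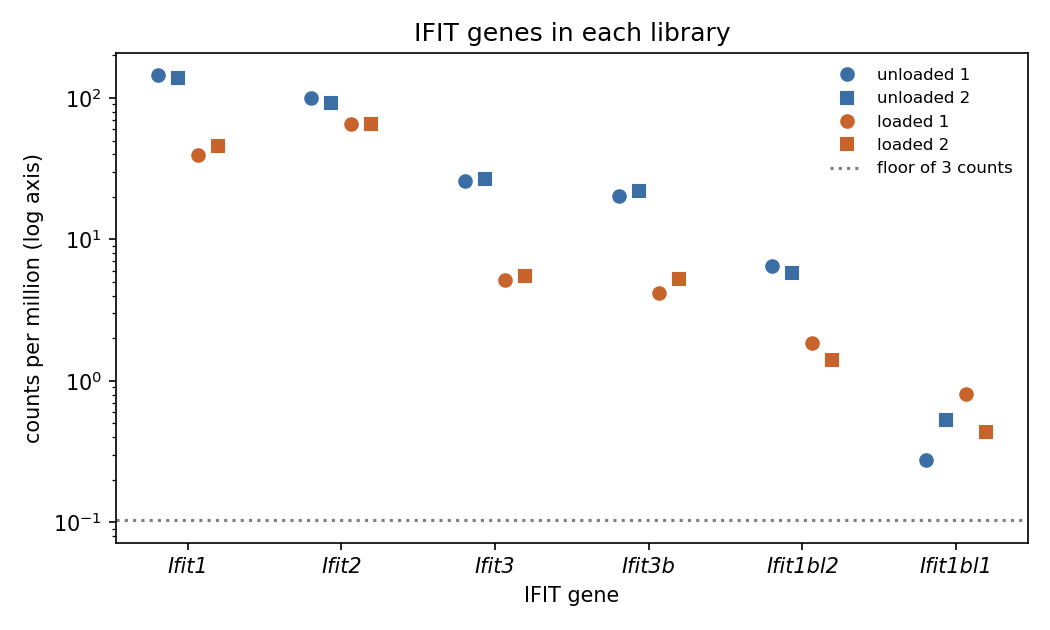
CPM (log axis) of the 6 IFIT genes in each library, with circles for replicate 1, squares for replicate 2 and a dotted line at the highest floor of 3 counts. The loaded libraries lie below the unloaded libraries for 5 genes and are mixed with them for *Ifit1bl1*.

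Over the 6 genes the median log2 fold change was -1.82, against -0.01 over all tested genes. Both loaded libraries lay below both unloaded libraries for 5 of the 6 genes, as for 24.5% of tested genes. The edgeR quasi-likelihood test with an adjusted p under 0.01 called 2 of the 6 (*Ifit1* and *Ifit3*), against 0.0983% of tested genes in either direction. At an edgeR adjusted p under 0.05 it called 4 as lower (background 0.565%), and 5 were lower at an unadjusted p under 0.05 (background 7.46%). DESeq2 with an adjusted p under 0.01 called 5 as lower (background 1.55%). When low counts were kept, the replicates were blocked or either loaded library was omitted, edgeR called 0 of all tested genes at 0.01, so the calls of *Ifit1* and *Ifit3* were lost. Since the genes were selected on this contrast, nothing is read from these counts.

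Levels were compared between genes per kilobase of exon (RPKM, from the same scaled counts). In unloaded cells the order was *Ifit1* (53.4 ± 1.57), *Ifit2* (24.6 ± 1.37), *Ifit3* (15.1 ± 0.460), *Ifit3b* (10.6 ± 0.683), *Ifit1bl2* (1.82 ± 0.154) and *Ifit1bl1* (0.178 ± 0.0790), in RPKM with the SD of 2 libraries. Each step of this order was larger than the SDs beside it. In both groups the step from *Ifit3* to *Ifit3b* rests on the uncertain split of reads between this pair, which the SDs do not measure. In loaded cells *Ifit1* (16.0 ± 1.75 RPKM) and *Ifit2* (16.7 ± 0.0906 RPKM) did not differ beyond their spread. *Ifit3* (3.05 ± 0.119 RPKM), *Ifit3b* (2.35 ± 0.382 RPKM), *Ifit1bl2* (0.485 ± 0.0946 RPKM) and *Ifit1bl1* (0.275 ± 0.116 RPKM) followed in the same order as in unloaded cells. Among the tested genes, the level of *Ifit1* stood at percentile 94.1 in unloaded and 77.1 in loaded cells.

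The make-up of the cluster's transcripts, a view taken after the values were seen, differed between the groups. The summed level was 106.9 and 104.3 RPKM in the unloaded libraries against 37.4 and 40.4 RPKM in the loaded libraries, or 36.8% of the unloaded mean. *Ifit2* made up 23.9% and 22.6% of this sum in the unloaded libraries against 44.6% and 41.6% in the loaded libraries. *Ifit1* made up 51.0% and 50.1% in the unloaded and 39.5% and 42.7% in the loaded libraries. The share of *Ifit3* was 13.8% and 14.8% in the unloaded and 7.94% and 7.76% in the loaded libraries. Put as a ratio of RPKM, *Ifit2* was at 0.469 and 0.452 of *Ifit1* in the unloaded libraries and at 1.13 and 0.974 in the loaded libraries.

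**Figure D2:**
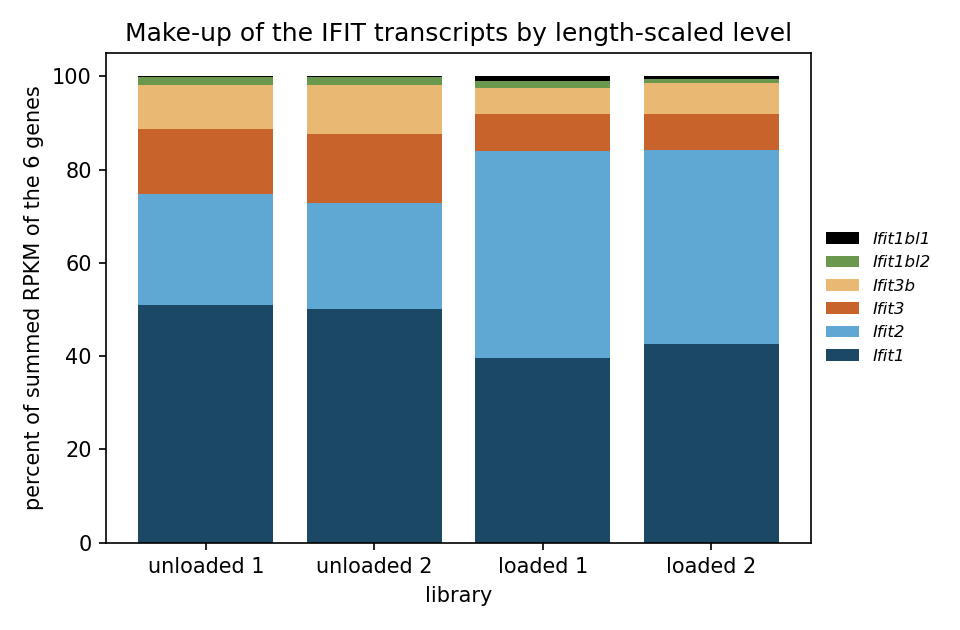
Share of each IFIT gene in the summed RPKM of the 6 genes, as percent, with 1 stacked bar per library. The *Ifit2* part is larger and the *Ifit1*, *Ifit3* and *Ifit3b* parts are smaller in both loaded libraries than in both unloaded libraries.

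Next, the genes around the cluster were compared between the groups. The 10 nearest protein-coding genes on each side reached 573.9 kb to the left and 2184 kb to the right, and 13 of 20 had enough counts. The edgeR test called 0 of them at an adjusted p under 0.01 (0.0983% of all tested genes) and 0 at 0.05 (0.565% lower and 0.338% higher). At such shares 0 calls of 13 says little about where the difference ends. At an unadjusted p under 0.05 the count was 1 lower of 13, near the 7.46% of all tested genes, and DESeq2 called 0. The median log2 fold change of the 13 genes was -0.05.

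On the left, *Lipa*, which encodes lysosomal acid lipase and ends 23.2 kb before *Ifit2*, had 1519 and 1500 counts in the unloaded and 1374 and 1406 in the loaded libraries (log2 fold change -0.18, SE 0.102, edgeR adjusted p = 0.487). *Ch25h*, which encodes an enzyme that hydroxylates cholesterol, had 8 and 4 counts in the unloaded and 0 and 0 in the loaded libraries, too few to test. *Fas*, the death receptor gene 222.9 kb away, was the 1 gene with an unadjusted p under 0.05, with a log2 fold change of -0.35 (SE 0.0994, edgeR adjusted p = 0.194). Farther out, *Acta2* (smooth muscle actin) and *Stambpl1* (a deubiquitinase) had log2 fold changes of -0.05 and -0.15. On the right, *Slc16a12*, 18.4 kb from *Ifit1*, and *Htr7*, 1309 kb away, had 0 counts in every library, which allows up to 0.103 CPM. *Pank1* (pantothenate kinase), *Kif20b* (a kinesin) and *Rpp30* (an RNase P subunit) lay 156.9, 272.4 and 1434 kb away. Their log2 fold changes were -0.04, -0.05 and 0.20.

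**Figure D3:**
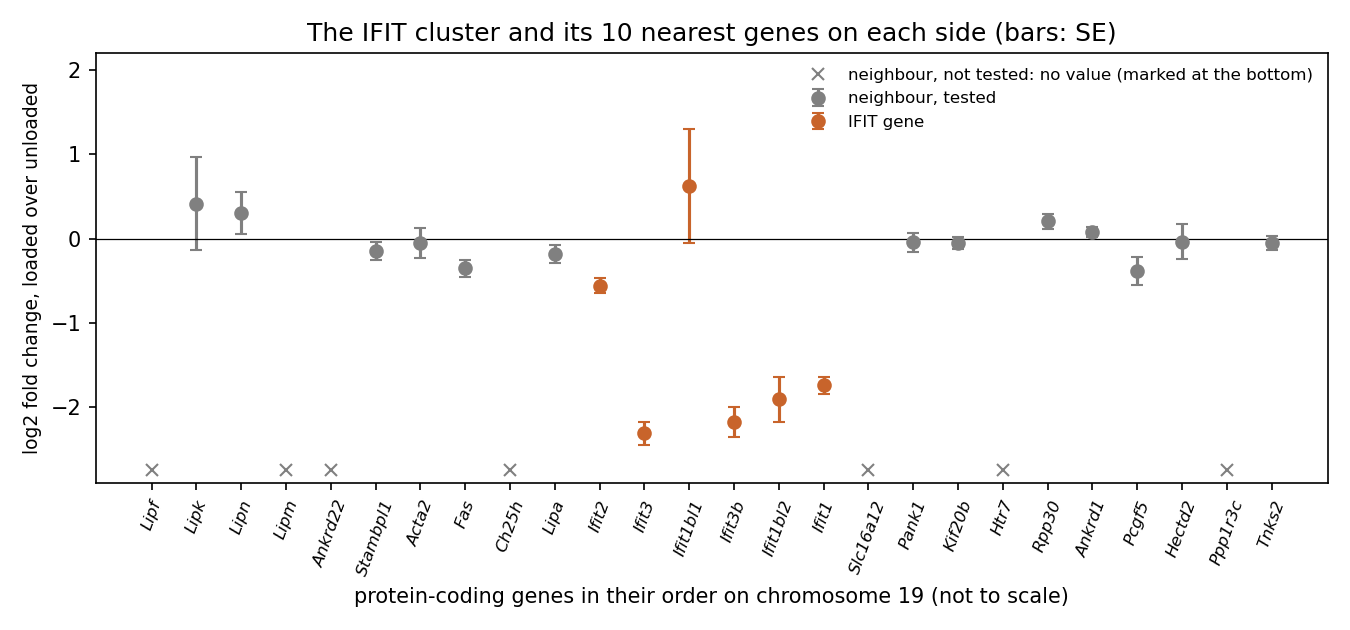
Log2 fold change of loaded over unloaded cells, with SE bars, for the IFIT genes and their 10 nearest protein-coding neighbours on each side, in chromosome order and not to scale. The neighbours with a value lie between -0.39 and 0.42, and 5 IFIT genes lie between -2.31 and -0.56.

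The genes that lead to IFIT expression were taken from 4 lists with 31 genes, of which 27 had enough counts. The edgeR test called 0 of them at an adjusted p under 0.01 (0.0983% of all tested genes). At an unadjusted p under 0.05 it gave 11 lower and 1 higher, against 7.46% and 6.88% of all tested genes. At an adjusted p under 0.05 it gave 7 lower and 0 higher, against 0.565% and 0.338%. DESeq2 at 0.01, the study's tool and threshold for differential genes, called 9 lower (background 1.55%) and 0 higher. The 7 stayed 7 with RLE factors and became 8 with at least 10 counts asked of every library, 4 when low counts were kept, 3 when replicates were blocked, 4 and 5 without unloaded library 1 and 2, and 2 and 0 without loaded library 1 and 2, so the calls at 0.05 named below depend on these settings. The median log2 fold change of the 27 genes was -0.23, against -0.01 over all tested genes. Several of these genes are known targets of interferon themselves.

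Among 12 sensors and adaptors, edgeR called 5 as lower at an adjusted p under 0.05 (background 0.565%), as did DESeq2 at 0.01 (background 1.55%). *Ddx58*, which encodes the RNA sensor RIG-I, had 4864 and 4778 counts in unloaded cells against 3116 and 3057 in loaded cells (log2 fold change -0.71, SE 0.0757, edgeR adjusted p = 0.0230). *Ifih1*, for the sensor MDA5, was at -0.95 on the log2 scale (SE 0.134, edgeR adjusted p = 0.0443). *Dhx58*, *Ikbke* and *Irf7* were the others, with log2 fold changes of -1.85, -1.02 and -1.75; the last 2 were named after their values were seen. The shared adaptor gene *Mavs* and the kinase gene *Tbk1* had log2 fold changes of -0.03 and 0.02. *Cgas* was the 1 gene of this list that was higher at an unadjusted p under 0.05 (background 6.88%). It was at 0.33 on the log2 scale (edgeR adjusted p = 0.222) and was named after its values were seen.

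For the ligands, *Ifnb1* (interferon beta) had 8 and 31 counts in unloaded cells against 4 and 0 counts in loaded cells, too few to pass the filter. *Ifna4* had at most 4 counts in any library. The receptor genes *Ifnar1* and *Ifnar2* had log2 fold changes of -0.20 (SE 0.106) and -0.50 (SE 0.108), with edgeR adjusted p = 0.451 and 0.128.

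Of 6 genes for the kinases and for factors that bind IFIT promoters, edgeR called 2 as lower at an adjusted p under 0.05 (background 0.565%) and DESeq2 called 3 at 0.01 (background 1.55%). *Stat2* was at -0.81 on the log2 scale (edgeR adjusted p = 0.0378), and *Irf9*, named after its values were seen, at -0.79 (edgeR adjusted p = 0.0410). Both loaded libraries lay below both unloaded libraries for either gene, as for 24.5% of tested genes. *Irf1* was at 75.6 and 105 CPM in the unloaded and 61.9 and 60.5 CPM in the loaded libraries (edgeR adjusted p = 0.193, DESeq2 adjusted p = 0.00891). *Jak1* had a log2 fold change of -0.01 (SE 0.0680) and *Irf2* of -0.20 (SE 0.105).

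Of 7 inhibitors, edgeR called 0 at an adjusted p under 0.01 (background 0.0983%) and 0 at 0.05 (background 0.565% lower and 0.338% higher). At an unadjusted p under 0.05, 2 were lower (background 7.46%). DESeq2 called 1 as lower at an adjusted p under 0.01 (background 1.55%). That gene was *Usp18*, which blocks the receptor, is itself induced by interferon and was named after its values were seen, at -1.57 on the log2 scale (edgeR adjusted p = 0.0511, DESeq2 adjusted p = 0.00109). The phosphatase genes *Ptpn1* and *Ptpn2*, the STAT inhibitor gene *Pias1* and the feedback inhibitor gene *Socs3* had log2 fold changes between -0.07 and 0.06. *Ptpn6*, a further phosphatase gene and the other gene with an unadjusted p under 0.05, had 29 and 62 counts in unloaded cells against 21 and 11 counts in loaded cells (log2 fold change -1.57, SE 0.581, edgeR adjusted p = 0.307). DESeq2 gave *Ptpn6* no adjusted p, so it could not call this gene. *Socs1* was at -0.28 (SE 0.213), and both genes were named after their values were seen.

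**Figure D4:**
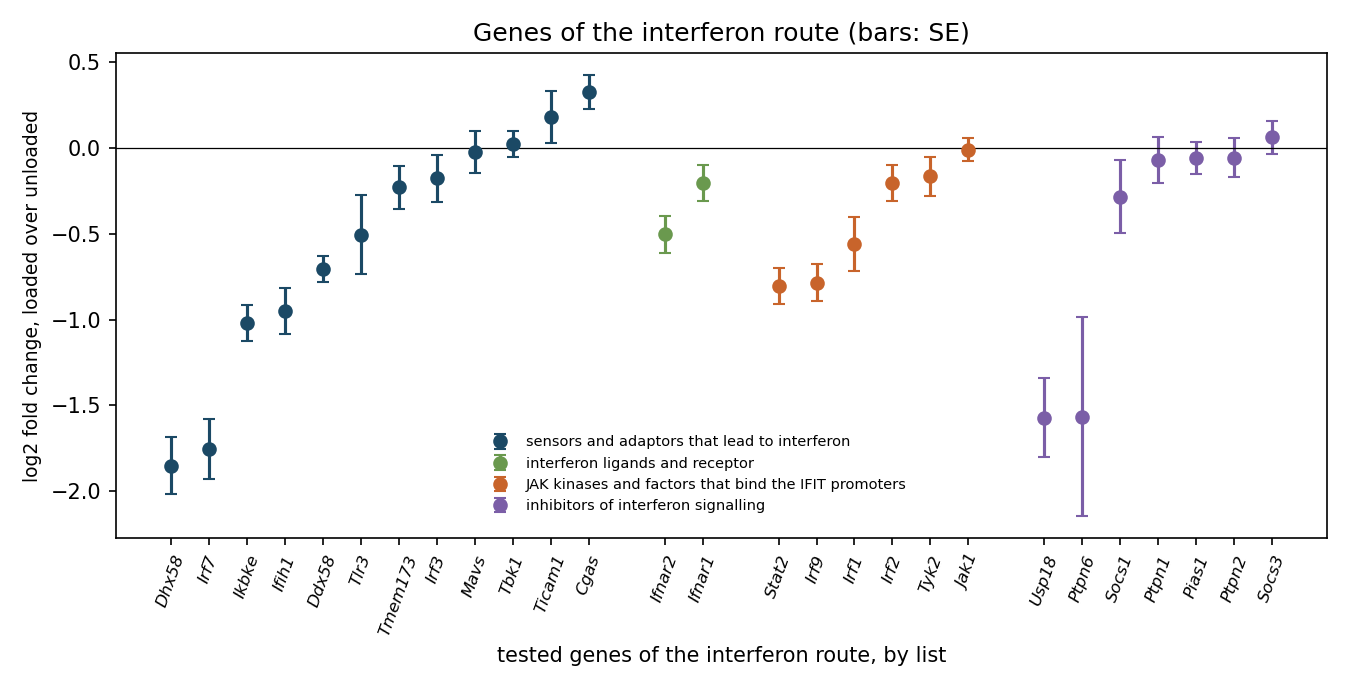
Log2 fold change of loaded over unloaded cells, with SE bars, for the 27 tested genes of the interferon route, coloured by list. The lowest values are those of *Dhx58* (-1.85) and *Irf7* (-1.75), and *Mavs*, *Tbk1* and *Jak1* lie near 0.

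IFIT proteins act on the RNA cap and on the translation factor eIF3, and the genes of these partners were tested as well. All 19 had enough counts. The edgeR test called 0 at an adjusted p under 0.01 (0.0983% of all tested genes) and 0 at 0.05 (0.565% lower and 0.338% higher). At such shares 0 calls of 19 says little about these genes. At an unadjusted p under 0.05 there were 0 lower and 2 higher (*Eif3b* and *Eif3j1*, named after their values were seen), against 7.46% and 6.88% of all tested genes, and DESeq2 called 0. The median log2 fold change was 0.04. Among cap-modifying enzymes, *Rnmt*, *Cmtr1*, *Rngtt* and *Pcif1* had log2 fold changes of 0.13, -0.13, -0.11 and -0.04. Among eIF3 subunits, *Eif3a*, *Eif3c*, *Eif3h* and *Eif3e* had log2 fold changes of 0.11, 0.08, -0.05 and 0.13.

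Finally, the tested genes most like the cluster were found by the distance between log2 CPM profiles over the 4 libraries, each centred on its own mean, with the cluster taken as the mean of its 5 genes with at least 100 counts in all. The nearest were *Oasl2*, *Trim14*, *Spats2l*, *Dhx58* and *Oas2*, at distances of 0.0770, 0.110, 0.135, 0.147 and 0.162. *Oasl2* had 2521 and 2419 counts in the unloaded and 768 and 756 in the loaded libraries, whereas *Spats2l* had 19, 17, 4 and 4 counts. *Spats2l* passed the filter on low counts only through the unloaded group, so nothing is read from its place among these genes. With 4 libraries in 2 groups, likeness here means a similar difference between the groups. The same 5 genes were found with RLE factors, another scaling, but 2 of the 5 with a prior count of 0.5 in place of 2 in the log2 values.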

How the data were processed

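The authors depleted ribosomal RNA, mapped trimmed reads to mm10 with HISAT2 2.1.0, assembled transcripts with StringTie 1.3.5 and deposited the resulting counts per gene, without normalization; strandedness and read length are not given in the sources used here. All 55450 gene identifiers are in GENCODE M21. The counts were filtered with filterByExpr (minimum 10), scaled by TMM and tested with glmQLFTest of edgeR 4.0.16 in R 4.3.3, p-values being adjusted by Benjamini-Hochberg over the 16269 genes tested, at the study's threshold of 0.01. SE is the log2 fold change divided by the square root of F. Alternatives were DESeq2 1.42.0, RLE factors, other count filters, the replicate number as a block, omission of each library, an adjusted p under 0.05, 20 neighbours a side and other promoter and profile settings. P-values measure only the spread between these libraries, which may be technical. Coding sequences and promoter letters were compared in Python 3.11.15 with Biopython 1.88, and the fit was tested on simulated data, where the share of false calls was above the threshold with both tools.

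The members and lists were chosen with earlier results of these data known. A gene of the route lists is not reported here; it was taken out for a reason other than its values, though after these were seen, and all list counts and medians are without it. Named by rule were the members, list genes passing 0.01 with up to 4 more of each list by mean CPM, 5 neighbours a side and the 5 most similar genes.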

Additional observations from a re-analysis of the deposited data

How the results depend on the processing

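The members' median log2 fold change was -1.81 with RLE factors, -1.82 with DESeq2 and with no filter on low counts, and -1.83 with a replicate block. It ranged from -1.88 to -1.76 with 1 library left out, where the lone library of a group was assumed to vary like the other group. With all libraries kept, *Ifit1* stayed between -1.74 and -1.73 and *Ifit2* between -0.56 and -0.55. Requiring at least 10 counts in every library drops *Ifit1bl1*, so it gave no median of 6. *Ifit1bl1* ranged from 0.12 to 1.16 on leaving out 1 library. The count of called interferon route genes, 0 by edgeR, was 9 with DESeq2 and 7 at an adjusted p under 0.05; the cause was not tested. It was 0 with RLE factors, the stricter filter and without either unloaded library. With no filter, with the replicate block and without either loaded library, 0 of all tested genes passed 0.01, so a count of 0 there says nothing about stability, and the calls of *Ifit1* and *Ifit3* were lost. At an adjusted p under 0.05, the route counts there were 4, 3, 2 and 0. At 0.01, partner and neighbour counts were 0 under the alternatives that called any gene, 20 neighbours a side included. At 0.05 DESeq2 called 1 of the 19 partner genes and 609 of the 12484 genes with an adjusted p, so nothing is read from this 1. Matches to the motif were in 5 members also when the window ended at the start site. The block rests on a shared number only: deviations of libraries with the same number correlated at -0.0390 across genes. With 2 libraries a group, *Ifit1bl1*, *Ifnb1* and *Ch25h* have too few counts for a direction to be read.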

Other observations

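The unloaded libraries differed from each other in some genes of the interferon route, chosen here after their values were seen. *Ifnb1* had 8 counts in unloaded 1 and 31 in unloaded 2, *Irf1* 2196 and 3174, *Socs1* 412 and 656, and *Tlr3* 525 and 847. On the log2 scale unloaded 2 was above unloaded 1 by 0.47 for *Irf1*, 0.61 for *Socs1* and 0.63 for *Tlr3*, whereas *Ifit1*, *Ifit2*, *Ifit3*, *Ifit3b* and *Ifit1bl2* lay between -0.17 and 0.13.

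Outside the cluster, 388 tested genes had at least 1 match to the response element letters in a promoter window, a count made after the data were seen. Their median log2 fold change was -0.07, against -0.01 for 10583 tested genes with a window. The edgeR test at an adjusted p under 0.05 called 26 of them as lower (6.70%) and 1 as higher, against 64 lower (0.605%) and 42 higher among the 10583. Both sets of counts are from the main fit and depend on its settings. Over all tested genes, calls at 0.05 fell from 147 to 62 with a replicate block, and to 62 with no filter on low counts. Genes of the route lists are included in these counts, and the part of the letters in the difference was not tested.

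Of 5 endothelial markers, *Kdr* had 0 and 0 counts in unloaded cells and 17 and 14 counts in loaded cells, and was named after these values were known. *Pecam1*, *Cdh5* and *Vwf*, also named after their values were seen, had log2 fold changes of -0.96 (SE 1.27), -0.59 (SE 0.482) and -0.43 (SE 0.646) at unadjusted p = 0.478, 0.263 and 0.530, from which no direction is read. *Tek* had too few counts to test. The edgeR test called 0 of the 4 tested markers at an adjusted p under 0.01. At an unadjusted p under 0.05 the 1 higher marker was *Kdr* (6.88% of all tested genes were higher). *Kdr* passed the filter on low counts only through the loaded group, so nothing is read from its test. DESeq2 gave no adjusted p for any of the 4 markers and so could call none. The 5 markers summed to 3.89 and 2.57 CPM in unloaded and 3.29 and 2.01 CPM in loaded libraries. Their part in the IFIT values was not tested.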
